A study of Mus musculus with 12 samples.

Results

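The effect of a Per2 knockout on transcript levels was compared between female and male osteoclast cultures of the mouse. For each gene the knockout minus control change in the male cultures was subtracted from the knockout minus control change in the female cultures. The result, called the difference of changes below, is in log2 units and is positive where the female change was the more positive. It was computed for the autosomal genes (not on X, Y or the mitochondrial genome) that reached an FPKM, fragment counts scaled by gene length and library total, of at least 1 in at least 3 libraries. These were 11673 of the 55806 genes in the table and of the 12102 genes that passed this rule on any chromosome.

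The 4 groups were female control, female Per2 knockout, male control and male Per2 knockout, with 3 libraries each. All cultures were grown from bone marrow monocytes of mice aged 8 to 12 weeks and were collected on day 4 of differentiation with the cytokines M-CSF and RANKL. Each group had 1 library in each of the labelled batches 1, 2 and 3. The libraries are labelled as biological replicates, but whether every library had a separate mouse behind it is not stated, and p-values below cover the scatter among the 12 libraries.

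The labels write the knockout as conditional (cKO). They do not name the cells or the driver of the deletion, nor whether the controls carry an unrecombined allele, and the series title names PER1 where every sample label names Per2.

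Per2 is a repressor in the circadian clock, the feedback loop of transcription factors that gives many genes a daily rhythm. Osteoclasts form by fusion of monocyte precursors, which can also become macrophages, and dissolve bone with acid and proteases. Interferons, made when cells sense foreign or misplaced nucleic acid, act through JAK kinases and STAT factors on a large shared set of antiviral genes, and they are known to restrain osteoclast formation.

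Reads assigned to genes numbered 13888150 to 17762190 per library, apart from 41145397 in male knockout replicate 2. Xist and 4 Y-linked genes matched the labelled sex in 12 of 12 libraries. Osteoclast markers were abundant in every group, with a summed level over 12 markers of 9100 to 10100 FPKM in the female controls and 10900 to 13200 in the female knockouts, and 8560 to 9810 in the male controls and 8650 to 9670 in the male knockouts. Per2 itself lay under the FPKM rule, at 0.331, 0.530 and 0.368 FPKM in the female controls and 0.258, 0.204 and 0.589 in the female knockouts. In males it was at 0.579, 0.721 and 0.701 FPKM in the controls and 0.466, 0.390 and 0.230 in the knockouts. The female groups overlapped and the male groups did not. The difference of changes of Per2 was 0.22 with an adjusted p of 0.49 when no filter was applied. The table does not say which part of the gene was removed, so a whole-gene level is a limited check of the deletion.

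The female and the male change differed for 4052 of the 11673 genes at an adjusted p under 0.05 (limma, two-sided, adjusted over all 12102 genes), which is 34.7%. Of these, 2112 (18.1% of genes tested) had a more positive change in females and are called higher, and 1940 (16.6%) had a more negative one and are called lower. The same fit called 5825 genes (49.9%) for the female knockout against the female control, 7040 (60.3%) for female against male controls, 3913 (33.5%) for female against male knockouts and 0 for the male pair, where 790 had an unadjusted p under 0.05 and limma's voom on recovered reads called 2. These contrasts share libraries with the difference of changes. The median difference was 0.50 over the higher genes, with a median change of 0.48 in females and −0.01 in males. Over the lower genes it was −0.41, with −0.39 in females and 0.03 in males. Over all tested genes the median was −0.01. The female change was the larger in size for 2061 of the higher (97.6%) and 1889 of the lower genes (97.4%), against 81.7% of all tested genes.

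Large differences lay mostly on the higher side. A difference over 1 log2 unit was reached by 409 higher genes (19.4%) and 61 lower genes (3.14%), and a difference over 2 by 100 and 4. All 3 batches had the sign of the pooled value for 2097 higher (99.3%) and 1928 lower genes (99.4%), which the call on the same libraries nearly fixes. Leaving out the library with the most Per2 among the female knockouts, replicate 3, gave 1955 higher and 1756 lower genes, and leaving out the deepest library gave 1869 and 1649.

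The split between higher and lower depended on how the libraries were scaled. Higher genes were 52.1% of the calls on the deposited FPKM. They were 34.8% (1601 higher, 2995 lower) with the assigned reads as the denominator, 24.0% (1261 and 3992) with the sum over nuclear protein-coding genes and 36.0% (1739 and 3098) with voom. The last 2 scalings moved the median of all genes to −0.17 and −0.11. Of the 2112 higher genes, 1257 kept the call with the nuclear protein-coding sum and 1598 with the assigned reads, while 1940 of 1940 lower genes kept it in both. No gene was called with the other sign in any of the 24 settings. As a ratio to the denominator used by the authors, assigned reads ran from 0.936 to 0.948 in the female control libraries, from 1.007 to 1.017 in the female knockout libraries and from 1.075 to 1.105 in males.

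**Figure D1:**
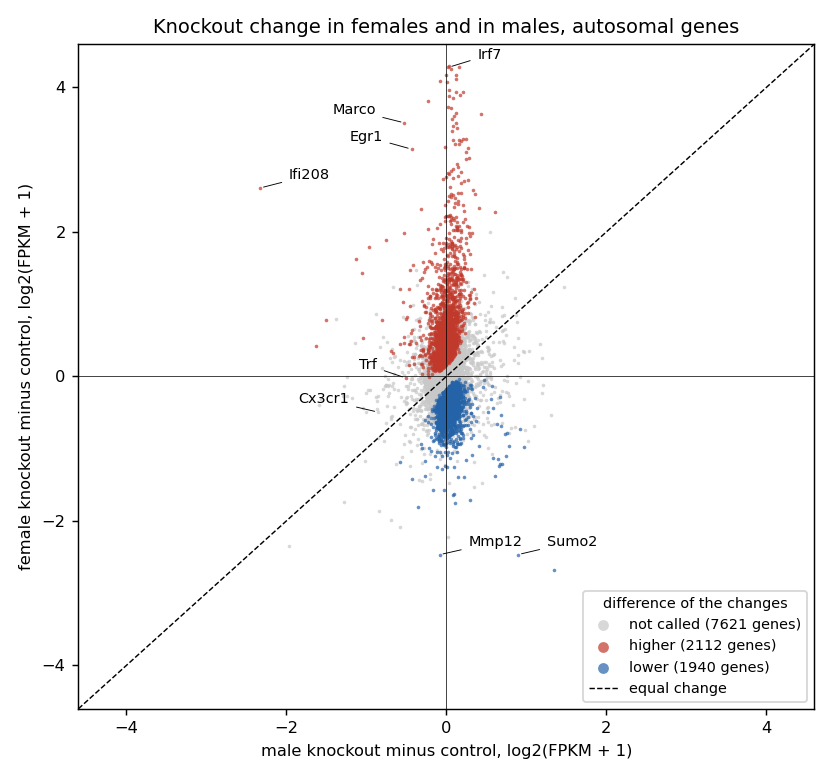
Change of each tested autosomal gene (knockout minus control, log2 of FPKM + 1) in female cultures on the vertical axis against male cultures on the horizontal axis, coloured by the call for the difference of the 2 changes, with the line of equal changes dashed. The called genes spread along the female axis: the median female change was 0.48 for the 2112 higher genes and −0.39 for the 1940 lower genes, while the median male changes were −0.01 and 0.03.

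The levels behind these differences were compared with the range of the 6 male libraries, controls and knockouts together. All 3 female controls lay outside that range for 1880 of the 2112 higher genes (89.0%), 1879 of them below it, and for 1650 of the 1940 lower genes (85.1%), 1641 of them above it. For all tested genes the share was 58.7%. All 3 female knockouts lay outside it for 1279 higher genes (60.6%, 1137 below and 142 above) and 737 lower genes (38.0%), against 35.0% of all tested genes. The median female minus male gap of the higher genes was −0.67 in controls and −0.17 in knockouts. For the lower genes it was 0.47 and 0.06. The gap was smaller in knockouts for 1957 higher (92.7%) and 1720 lower genes (88.7%), against 73.2% of all tested genes. The difference of changes equals the gap in knockouts minus the gap in controls. These shares therefore describe the values behind the call and are no separate evidence for it. Thus for most called genes the female control libraries were the ones that stood apart, and the female knockouts lay between them and the males or within the male range. Anything else that the 3 female control libraries share cannot be told apart from their sex and genotype.

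Among the higher genes, both female groups lay on the same side of the male range for 1137 (53.8%, against 28.2% of all tested genes) and the female controls alone lay outside it for 696 (33.0%, against 29.7%). Among the lower genes the order was the other way, with 596 (30.7%) and 1016 (52.4%). The female knockouts alone stood apart for 95 higher (4.50%) and 103 lower genes (5.31%), against 6.06% of all tested genes. With the assigned reads as the denominator, the female controls lay outside the male range for 75.9% of the higher and 95.6% of the lower genes, and with the nuclear protein-coding sum for 69.9% and 97.2%. Both scalings of the levels were chosen after seeing the data.

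**Figure D2:**
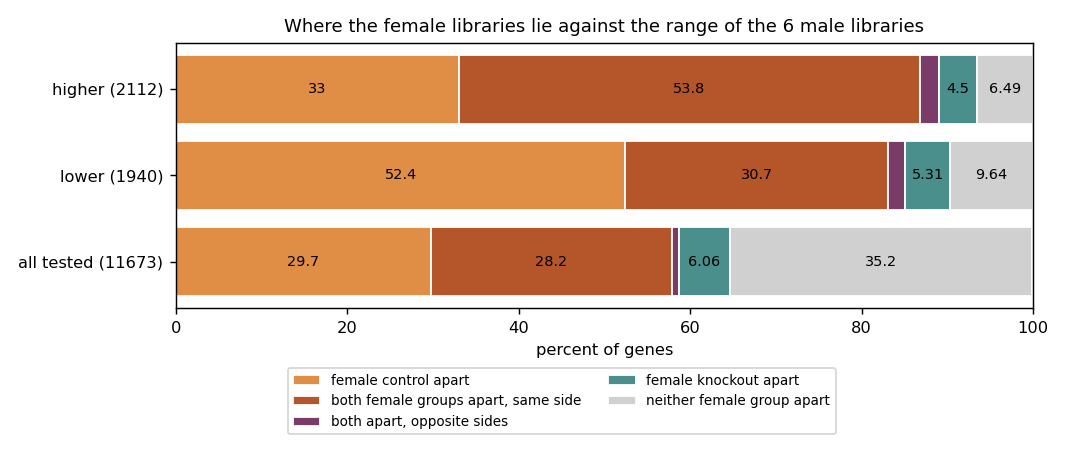
Percent of the higher, the lower and all tested genes in each level pattern, where a female group is apart when all 3 of its libraries lie outside the range of the 6 male libraries. Both female groups lay on the same side of the males in 53.8% of the higher genes, and the female controls alone were apart in 52.4% of the lower genes.

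Interferon-stimulated genes had the highest median of all lists. Counts for each list below stand beside 18.1% higher and 16.6% lower among all tested genes. Of a list of 46, all 46 were tested and 46 were higher, with a median difference of 2.36 against −0.01 over all tested genes. The median change of the list was 2.52 in females and 0.10 in males, and its median female minus male gap was −3.46 in controls and −1.21 in knockouts. Summed over the list, levels were 419 to 522 FPKM in the female controls and 3070 to 4140 in the female knockouts, and 7510 to 8650 in the male controls and 8210 to 8750 in the male knockouts. The summed level was thus lowest in the female controls and intermediate in the female knockouts. In RNA from whole cultures, fewer cells with a transcript and less of it per cell cannot be told apart.

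The promoters of 4 of the genes with the largest differences are shown because each holds the letters of the interferon response element, a sequence that interferon regulatory factors and STAT complexes are known to bind. Each runs from 250 bases before to 50 bases after a RefSeq transcription start (build GRCm38.p6) and is written along the gene's own strand. Capitals mark the element, GAAA followed by any 2 bases and a second GAAA, on either strand. Ifit3 lies at chr19:34583279-34583578 on the plus strand with 2 matches, Cxcl10 at chr5:92348840-92349139 on the minus strand with 1, Saa3 at chr7:46715627-46715926 on the minus strand with 1 and Isg15 at chr4:156200769-156201068 on the minus strand with 3 that overlap.
Ifit3: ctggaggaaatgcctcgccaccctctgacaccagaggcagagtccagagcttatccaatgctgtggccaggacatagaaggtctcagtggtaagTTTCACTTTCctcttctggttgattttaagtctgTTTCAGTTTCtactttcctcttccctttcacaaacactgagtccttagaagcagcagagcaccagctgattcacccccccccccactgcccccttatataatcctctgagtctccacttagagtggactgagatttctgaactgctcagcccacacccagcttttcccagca
Cxcl10: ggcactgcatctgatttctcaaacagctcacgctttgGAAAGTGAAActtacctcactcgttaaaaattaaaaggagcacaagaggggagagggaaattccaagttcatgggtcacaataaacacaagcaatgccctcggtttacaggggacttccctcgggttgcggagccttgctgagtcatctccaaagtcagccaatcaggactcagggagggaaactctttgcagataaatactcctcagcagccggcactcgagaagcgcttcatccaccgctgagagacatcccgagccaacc
Saa3: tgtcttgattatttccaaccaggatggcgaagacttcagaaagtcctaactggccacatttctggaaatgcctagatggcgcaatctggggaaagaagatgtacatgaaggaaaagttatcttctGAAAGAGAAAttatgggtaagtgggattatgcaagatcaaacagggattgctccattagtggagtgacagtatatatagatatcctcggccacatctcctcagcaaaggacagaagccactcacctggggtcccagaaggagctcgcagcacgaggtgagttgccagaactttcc
Isg15: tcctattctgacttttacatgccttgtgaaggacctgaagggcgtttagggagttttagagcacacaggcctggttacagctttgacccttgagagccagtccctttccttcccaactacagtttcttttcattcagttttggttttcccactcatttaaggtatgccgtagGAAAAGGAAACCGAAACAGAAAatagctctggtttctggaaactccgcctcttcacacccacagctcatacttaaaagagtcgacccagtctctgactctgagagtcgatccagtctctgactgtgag
Of the 12 genes with the largest positive differences, Ifi208 also held the element, and the windows of Irf7, Ifit2, Oasl1, Ms4a4c, Ms4a4a, Marco and Fcgr1 did not hold these letters. The element was present in a promoter of 23 of 35 interferon-stimulated genes with a promoter in the RefSeq table (65.7%), 129 of 1595 higher genes (8.09%), 41 of 1512 lower genes (2.71%) and 343 of 8358 tested genes (4.10%). Of the 100 genes with a difference over 2, 69 had a promoter in the table and 35 of these held it (50.7%). The letters of an AP-1 site, TGANTCA, were in 8.90% of higher, 5.36% of lower and 6.45% of all promoters, and those of an NF-kB site, GGGA and TTTCC with any base between, in 0.940%, 0.397% and 0.550%. Among the 69 promoters of genes with a difference over 2, AP-1 letters were in 15 (21.7%) and NF-kB letters in 3 (4.35%). Of the 35 interferon-stimulated promoters, 9 held the AP-1 letters (25.7%) and 1 the NF-kB letters (2.86%). An E-box, CACGTG, which clock activators share with other transcription factors, was in 11% of higher, 13.4% of lower and 12.2% of all. The E-box was in 1 of the 69 promoters of genes with a difference over 2 (1.45%). These are matches of letters in a fixed window and do not show that a factor binds there.

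Irf7, on chromosome 7, encodes the transcription factor that amplifies the production of type I interferon. It was at 13.1, 12.3 and 16.6 FPKM in the female controls and 283, 246 and 339 in the female knockouts. In males Irf7 was at 574, 603 and 678 FPKM in the male controls and 657, 580.4 and 648 in the male knockouts. The female controls were the lowest, the female knockouts lay under the male libraries without overlap, and the male groups overlapped. The ratio of mean levels, knockout over control, was 20.7 in females and 1.02 in males, and the difference of changes was 4.25 ± 0.18 (SE; adjusted p = 2.07e-07). Ifit3, of a family that blocks viral RNA, was at 9.07, 7.88 and 9.66 FPKM in the female controls and 186, 156 and 242 in the female knockouts. Male levels of Ifit3 were 585, 665 and 758 FPKM in the male controls and 677, 651 and 723 in the male knockouts. The order of the groups was that of Irf7, with a difference of 4.25 ± 0.20 (SE; adjusted p = 2.84e-07). Isg15, a ubiquitin-like modifier, was at 15.4, 19.9 and 32 FPKM in the female controls and 372, 311 and 464 in the female knockouts. In males it stood at 876, 1009.7 and 963 FPKM in the male controls and 941, 932 and 978 in the male knockouts, again with no overlap between the female groups, and its difference was 4.07 ± 0.30 (SE; adjusted p = 3.44e-06).

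Further interferon-stimulated genes sense foreign RNA or restrict viruses. Ifih1, the double-stranded RNA sensor MDA5, was at 2.72, 3.07 and 3.14 FPKM in the female controls and 16.8, 15.3 and 17.9 in the female knockouts. Male levels of Ifih1 were 31, 32.9 and 34 FPKM in the male controls and 34.3, 33 and 33.9 in the male knockouts, and the difference was 2.10 ± 0.09 (SE; adjusted p = 2.07e-07). Dhx58, a relative of that sensor, had a difference of 2.15 ± 0.09 (SE; adjusted p = 2.17e-07), and Bst2, which tethers virus particles to the cell, one of 2.77 ± 0.12 (SE; adjusted p = 2.07e-07). Ifit2 had 4.13 ± 0.22 (SE; adjusted p = 5.81e-07) and Oasl1, of the oligoadenylate synthetase family, 4.05 ± 0.19 (SE; adjusted p = 2.84e-07). All 5 were called in each of the 24 settings. Ifi208 had the largest fitted difference of any named gene, 4.94 ± 1.37, but its male knockouts were at 0.0483, 26 and 0.158 FPKM, so the libraries within that group disagree, no fold is given, and the call was lost in 3 settings with values from 2.20 to 9.75.

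Of 20 tested genes for interferons, their receptors and feedback, 15 were higher and 0 lower, with a median of 0.42. Tlr9 and Tlr3 sense DNA and RNA in endosomes. Tlr9 was at 2.36, 2.38 and 2.81 FPKM in the female controls and 10.8, 8.67 and 13.3 in the female knockouts. Male levels of Tlr9 were 22.2, 24.1 and 29.7 FPKM in the male controls and 34.6, 25.9 and 31.6 in the male knockouts, and the difference was 1.48 ± 0.21 (SE; adjusted p = 0.000349). The difference of Tlr3 was 1.25 ± 0.16 (SE; adjusted p = 0.000178). Socs1, the feedback inhibitor of the JAK kinases, was at 1.03, 1.1 and 1.27 FPKM in the female controls and 3.3, 3.15 and 4.19 in the female knockouts. In males Socs1 was at 6.25, 7.17 and 6.53 FPKM in the male controls and 7.44, 6.82 and 7.01 in the male knockouts, with a difference of 1.0 ± 0.12 (SE; adjusted p = 0.000113). Ikbke, a kinase that activates interferon regulatory factors, had 0.86 ± 0.09 (SE; adjusted p = 3.7e-05). The ligand gene Ifnb1 and the receptor genes Ifnar1, Ifnar2, Ifngr1 and Ifngr2 were among the 15.

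Chemokines and cytokines followed. Of 30 tested, 22 were higher and 1, the chemokine Ccl9 (named after its value was seen), was lower at −0.31, and the median was 1.2. Cxcl10, which attracts T cells, was at 3.61, 3.49 and 5.78 FPKM in the female controls and 83.5, 75.1 and 127 in the female knockouts. Male levels of Cxcl10 were 304, 359.6 and 309 FPKM in the male controls and 289, 330.1 and 349 in the male knockouts. The 4 groups kept the order seen for Irf7, and the difference was 4.18 ± 0.28 (SE; adjusted p = 1.63e-06). Ccl5, another chemokine for T cells and monocytes, was at 18.6, 23 and 21.3 FPKM in the female controls and 278, 327 and 373 in the female knockouts, and in males at 504, 610.4 and 762 FPKM in the male controls and 713, 607 and 763 in the male knockouts, with a difference of 3.73 ± 0.22 (SE; adjusted p = 8.03e-07). Saa3, an acute-phase protein, rose from 1.42, 2.5 and 1.99 FPKM to 46.7, 46.7 and 53.9 in females and was at 95.1, 84.6 and 142 FPKM in the male controls and 105, 88.6 and 103 in the male knockouts, with a difference of 4.17 ± 0.25 (SE; adjusted p = 1.03e-06). Ccl12 was at or near 0 in the female controls (0, 0.498 and 0.377 FPKM), so no fold is given. It was at 15.1, 14.4 and 28.6 FPKM in the female knockouts, 83, 78.5 and 84.2 in the male controls and 79.3, 91.4 and 116 in the male knockouts.

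Complement and antibody receptors were higher in 12 and lower in 2 of 15 (median 1.39). Fcgr1, the high-affinity receptor for IgG, was at 5.58, 6.01 and 9.27 FPKM in the female controls and 132, 115 and 158 in the female knockouts. Male levels of Fcgr1 were 334, 354 and 404 FPKM in the male controls and 406, 368 and 409 in the male knockouts, with a difference of 3.99 ± 0.22 (SE; adjusted p = 6.55e-07). Fcgr4 had 2.65 ± 0.20 (SE; adjusted p = 3.72e-06). The complement genes C1qb and C3 had 1.85 ± 0.11 (SE; adjusted p = 1.15e-06) and 1.73 ± 0.13 (SE; adjusted p = 4.59e-06). Itgax, described below, was one of the 2 lower members. Marco, a scavenger receptor of macrophages, differed from these in its levels: it was at 12, 14.4 and 16.7 FPKM in the female controls and 169.9, 186 and 163 in the female knockouts, and in males at 168, 131 and 71.6 FPKM in the male controls and 76.7, 88.8 and 77.2 in the male knockouts. The female controls alone stood apart, the female knockouts overlapped the male controls, and the difference was 4.03 ± 0.34 (SE; adjusted p = 9.31e-06).

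Antigen presentation was higher in 17 and lower in 0 of 19 class I genes (median 0.97), and in 9 and 1 of 14 class II genes (median 0.61). Tapbp, tapasin, which loads peptides onto class I molecules, was at 49.6, 50.1 and 57.3 FPKM in the female controls and 153, 139.8 and 164 in the female knockouts. Male levels of Tapbp were 225, 245 and 236 FPKM in the male controls and 235, 229.6 and 233 in the male knockouts, and the difference was 1.54 ± 0.09 (SE; adjusted p = 1.05e-06). Tap2, a peptide transporter, had 0.88 ± 0.06 (SE; adjusted p = 1.56e-06), and Psmb10, an immunoproteasome subunit, had 1.40 ± 0.10 (SE; adjusted p = 3.48e-06). H2-Ab1, a class II chain, was at 43.5, 37.4 and 48.4 FPKM in the female controls and 98.4, 97.2 and 103 in the female knockouts. In males H2-Ab1 was at 114, 126 and 128 FPKM in the male controls and 119, 106 and 114 in the male knockouts, with a difference of 1.31 ± 0.12 (SE; adjusted p = 1.47e-05). Cd40, a receptor through which T cells activate antigen-presenting cells, had 1.92 ± 0.18 (SE; adjusted p = 1.79e-05). The lower class II gene was H2-Ob at −0.87 (named after its value was seen), which encodes part of an inhibitor of peptide loading. Class I genes of the H2 region are near-identical to each other, so their separate values are uncertain.

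**Figure D3:**
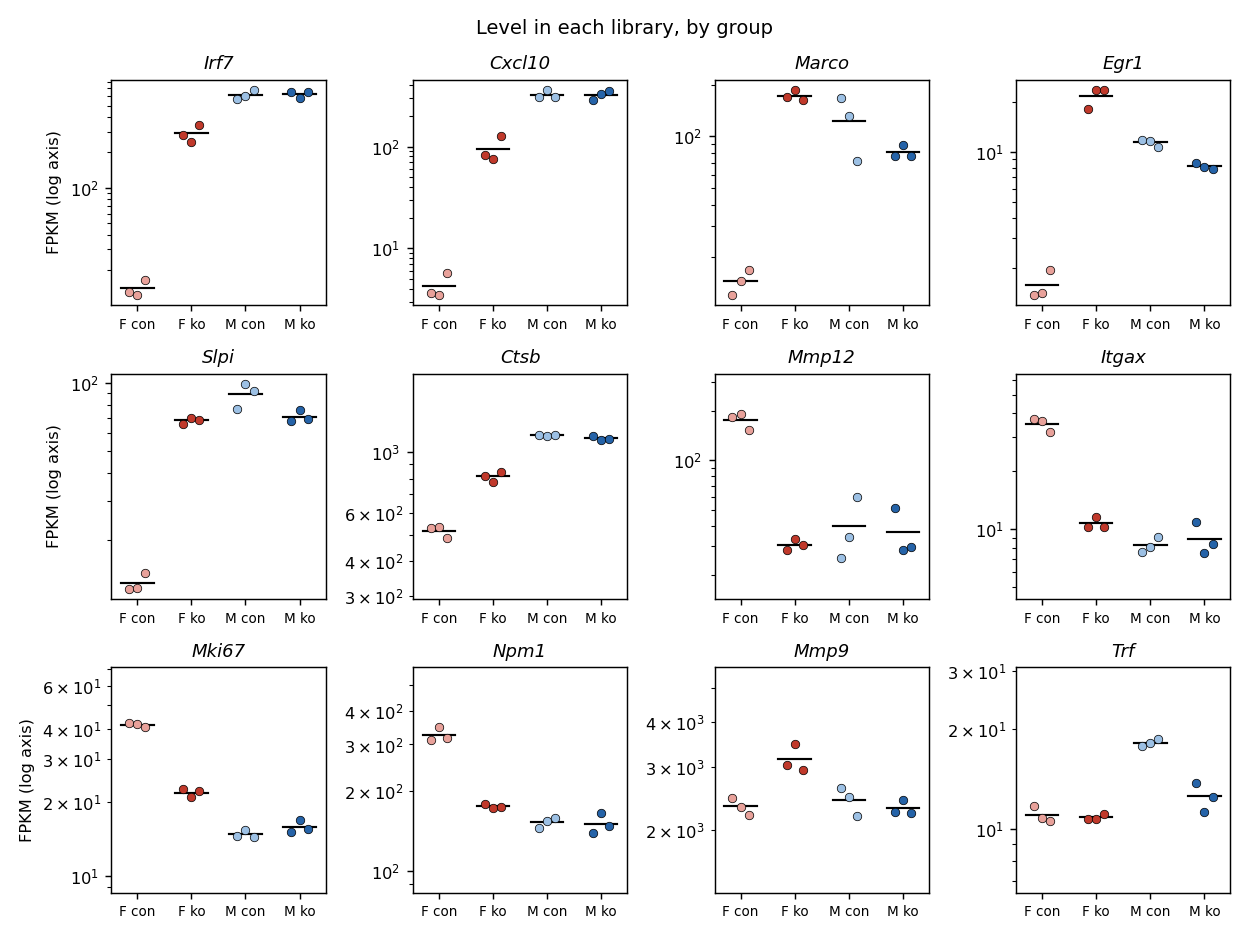
FPKM on a log axis of 12 named genes in each of the 12 libraries, with points for libraries and bars for group means. Irf7, Cxcl10, Marco, Egr1, Slpi and Ctsb were lowest in the female controls, Mmp12, Itgax, Mki67 and Npm1 were highest there, Mmp9 was highest in the female knockouts and Trf was highest in the male controls.

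Macrophage markers moved with these groups: 17 of 19 tested were higher and 0 lower (median 1.05). The summed level of all 21 listed was 7310 to 9030 FPKM in the female controls and 12700 to 13800 in the female knockouts. In males the sum was 13600 to 16500 in the male controls and 14300 to 15100 in the male knockouts. Cd163, a marker of tissue macrophages, was under 1 FPKM in all 12 libraries. The part of macrophage markers in the differences above was not tested. Adgre1, the macrophage surface protein F4/80, was at 82.5, 87.5 and 80.1 FPKM in the female controls and 302, 276 and 335 in the female knockouts. Male levels of Adgre1 were 417, 390.1 and 394 FPKM in the male controls and 388, 427 and 446 in the male knockouts, and the difference was 1.78 ± 0.10 (SE; adjusted p = 8.03e-07). Maf, a macrophage transcription factor, was at 3.37, 3.6 and 4.31 FPKM in the female controls and 20.1, 19.6 and 24 in the female knockouts. In males Maf was at 39.2, 39.8 and 40.6 FPKM in the male controls and 41, 38.6 and 41.5 in the male knockouts, and the difference was 2.21 ± 0.12 (SE; adjusted p = 5.28e-07). Slpi, a secreted inhibitor of proteases, had female controls apart from all other libraries, at 12.2, 12.2 and 14.3 FPKM in the female controls and 65.9, 70.1 and 68.6 in the female knockouts, and in males was at 76.3, 99.2 and 91.7 FPKM in the male controls and 68, 75.6 and 69.2 in the male knockouts. Its difference was 2.63 ± 0.13 (SE; adjusted p = 3.24e-07).

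Lysosomal genes were higher in 24 and lower in 0 of 27 (median 0.57). Psap, the precursor of the saposins that help break down lipids, was at 1427, 1439 and 1327 FPKM in the female controls and 2379, 2204 and 2234 in the female knockouts. In males Psap was at 2889, 2832 and 2907 FPKM in the male controls and 2872, 2783 and 2741 in the male knockouts. The female controls were lowest, the female knockouts lay between them and the males, and the difference was 0.74 ± 0.07 (SE; adjusted p = 1.3e-05). Ctsb and Ctsd, proteases of the lysosome, had 0.69 ± 0.06 (SE; adjusted p = 1.8e-05) and 0.71 ± 0.07 (SE; adjusted p = 2.4e-05). Ctsc, which activates granule proteases, had 1.69 ± 0.13 (SE; adjusted p = 4.14e-06). The E-box was in the promoters of 8 of 21 lysosomal genes (38.1%), of 6 of 18 immediate early genes (33.3%) and of 7 of 24 nucleolar genes (29.2%), most of which were lower, against 12.2% of all. In the other lists searched it was in 2 of 16 class I genes (12.5%), 0 of 20 mitosis genes and 0 of 35 interferon-stimulated genes. Which factor acts on these promoters was not tested. Genes of cholesterol handling through the LXR receptors were higher in 11 and lower in 2 of 18 (median 0.32). Npc2, which moves cholesterol out of lysosomes, had 1.02 ± 0.06 (SE; adjusted p = 9.24e-07), Nr1h3, the receptor LXR alpha, 1.44 ± 0.11 (SE; adjusted p = 4.4e-06), and Abca1, the cholesterol exporter, 0.90 ± 0.08 (SE; adjusted p = 1.8e-05). The 2 lower genes were Cd36 and Lpl, which take up and release fatty acids (named after their values were seen).

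Iron and antioxidant genes were divided. Of 14 iron genes 6 were higher and 1 lower (median 0.42). Fth1, a ferritin chain that stores iron, was at 984, 1133 and 993 FPKM in the female controls and 2262, 2271 and 2353 in the female knockouts. Male levels of Fth1 were 2776, 3077 and 2832 FPKM in the male controls and 2582, 2483 and 2640.4 in the male knockouts, and the difference was 1.32 ± 0.09 (SE; adjusted p = 1.56e-06). Hmox1, which frees iron from heme, had 1.13 ± 0.13 (SE; adjusted p = 6.07e-05). Of 24 genes of the NRF2 pathway against oxidative stress 9 were higher and 7 lower (median −0.08). Fth1, Hmox1 and Gpx1 (0.45 ± 0.05 (SE; adjusted p = 5.01e-05)) were among the higher ones, and the glutathione synthesis genes Gclc and Gclm and the cystine transporter Slc7a11 were among the lower ones. Ferritin genes have many processed copies in the genome, so their levels are uncertain.

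Immediate early genes, which switch on within minutes of a signal, were higher in 14 and lower in 2 of 21 (median 0.75). Egr1, a transcription factor of this class, was at 1.37, 1.41 and 1.92 FPKM in the female controls and 18.1, 23.6 and 23.5 in the female knockouts. In males Egr1 was at 11.8, 11.7 and 10.7 FPKM in the male controls and 8.53, 8.08 and 7.92 in the male knockouts. The female controls lay below and the female knockouts above every male library, and the difference was 3.58 ± 0.15 (SE; adjusted p = 2.07e-07). Ier2 had the same arrangement, at 21.7, 22.7 and 26 FPKM in the female controls and 60.7, 68.6 and 68.2 in the female knockouts and at 52.4, 56 and 48.6 FPKM in the male controls and 42.3, 41.2 and 45.4 in the male knockouts, with a difference of 1.73 ± 0.11 (SE; adjusted p = 1.24e-06). Zfp36, which destabilises cytokine transcripts, was at 17.9, 17.2 and 19.1 FPKM in the female controls and 57, 62.5 and 64 in the female knockouts. Male levels of Zfp36 were 65, 69.4 and 63.4 FPKM in the male controls and 60.2, 59.8 and 58.4 in the male knockouts, the female controls alone stood apart, and the difference was 1.85 ± 0.08 (SE; adjusted p = 2.07e-07). Dusp1, a phosphatase that ends MAP kinase signals, had 1.65 ± 0.11 (SE; adjusted p = 1.57e-06). The 2 lower members were the transcription factors Egr2, at 14.9, 16.6 and 14.8 FPKM in the female controls and 4.28, 4.42 and 4.9 in the female knockouts and at 3.31, 3.92 and 5.73 FPKM in the male controls and 4.57, 3.29 and 3.21 in the male knockouts with a difference of −1.40 ± 0.21 (SE; adjusted p = 0.000507), and Atf3 (named after its value was seen).

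Of 20 tested genes on a list of repressors of osteoclast formation, 13 were higher and 0 lower (median 0.62). The list is wider than its name, since Nfkb1 and Cebpa, neither of them called, also promote osteoclast formation. Id3, an inhibitor of helix-loop-helix factors, was at 10.5, 10.6 and 8.73 FPKM in the female controls and 25, 26.6 and 27.8 in the female knockouts. In males Id3 was at 29, 29.8 and 23.3 FPKM in the male controls and 24.4, 27.7 and 27.9 in the male knockouts, with a difference of 1.36 ± 0.14 (SE; adjusted p = 3.49e-05). Zfp36l1, an RNA-binding relative of Zfp36, had 1.21 ± 0.09 (SE; adjusted p = 3.14e-06). Genes of NF-kB signalling were mixed, with 8 higher and 4 lower of 23, and the median of 0.15 turned to −0.04 with the nuclear protein-coding sum. Ier3, a survival gene induced by NF-kB, had 1.39 ± 0.12 (SE; adjusted p = 1.39e-05), and Malt1, a scaffold and protease of that pathway, had −0.93 ± 0.07 (SE; adjusted p = 5.21e-06).

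The osteoclast's own genes had medians closer to 0. Of 30 differentiation and fusion genes 9 were higher and 5 lower, and the median of 0.07 had the other sign in 4 of the 5 scalings. Bone resorption genes were higher in 16 and lower in 0 of 28, with a median of 0.29 that was 0.10 under quantile normalization and with the nuclear protein-coding sum, where Mmp14 and Tcirg1 lost their calls. Podosome and adhesion genes were higher in 14 and lower in 4 of 27, with a median of 0.17 that turned to −0.01 with the nuclear protein-coding sum. Of all tested genes 18.1% were higher, but 35.1% were with a mean of 20 to 100 FPKM and 48.0% over 100. Neither the resorption and podosome lists nor any other list was compared with genes of like level. Of the 12 osteoclast markers 4 were higher and 0 lower. Mmp9, a matrix protease, was at 2464, 2325 and 2209 FPKM in the female controls and 3036, 3482 and 2941 in the female knockouts. Male levels of Mmp9 were 2625, 2472 and 2184 FPKM in the male controls and 2238, 2426 and 2236 in the male knockouts. The female knockouts lay above all other libraries, and the difference was 0.51 ± 0.11 (SE; adjusted p = 0.006), a call lost in 3 of the 24 settings, 2 of them scalings (adjusted p of 0.00222 to 0.161). Acp5, the acid phosphatase TRAP, had the same order, at 2108, 1861 and 1831 FPKM in the female controls and 2395, 2799 and 2334 in the female knockouts and at 2123, 1989 and 1925 FPKM in the male controls and 1988, 2132 and 1949 in the male knockouts. Its difference of 0.37 ± 0.11 (SE; adjusted p = 0.025) was lost in 9 settings and ran from 0.08 to 0.43 over them all (adjusted p of 0.0128 to 0.69). Leaving out the library of female control 2 or 3, of male control 1 or of male knockout 1 or 3 ended the call. Oscar, a receptor that costimulates osteoclasts, had 0.41 ± 0.14 (SE; adjusted p = 0.0372), lost in 13 settings (adjusted p of 0.0169 to 0.262), including the omission of female control 2 or 3, of female knockout 1 or 2, of male control 1 or 2 or of male knockout 1 or 3.

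Ctsk, the protease that digests bone collagen, was at 4539, 4386 and 4195 FPKM in the female controls and 4645, 5798 and 4606 in the female knockouts. In males Ctsk was at 4165, 3870.1 and 3689 FPKM in the male controls and 3616, 4210.1 and 3817 in the male knockouts, and its difference of 0.20 ± 0.13 (SE; adjusted p = 0.252) did not pass the test. The 95% interval of that difference ran from −0.08 to 0.48. Nfatc1, the master transcription factor of osteoclasts, had −0.24 ± 0.10 (SE; adjusted p = 0.0771) with an interval of −0.46 to −0.03. For the fusion genes Dcstamp and Ocstamp the intervals were −0.43 to 0.42 and −0.10 to 0.42, and for the calcitonin receptor gene Calcr −0.31 to 0.41. In the limma fit on the deposited FPKM none of these 5 was called. Nfatc1 was called lower in 5 of the 24 settings, with the assigned reads, quantile normalization, the nuclear protein-coding sum, voom, and without female knockout 2, and its values ran from −0.43 to −0.17 (adjusted p of 0.00895 to 0.163). Csf1r, the receptor of M-CSF, was at 194, 197 and 194 FPKM in the female controls and 242, 236 and 232 in the female knockouts and at 225, 226 and 217 FPKM in the male controls and 209, 212 and 206 in the male knockouts, with a difference of 0.37 ± 0.05 (SE; adjusted p = 0.000166) that was lost under quantile normalization. Of 13 tested genes listed under coupling, the action of osteoclasts on bone-forming cells, 5 were higher and 1 lower (median 0.40). Tgfb1 was among the higher ones, at 0.69 ± 0.06 (SE; adjusted p = 1.8e-05). The lower one was Ahcy at −0.66, which encodes an intracellular enzyme and not a factor that osteoclasts release.

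**Figure D4:**
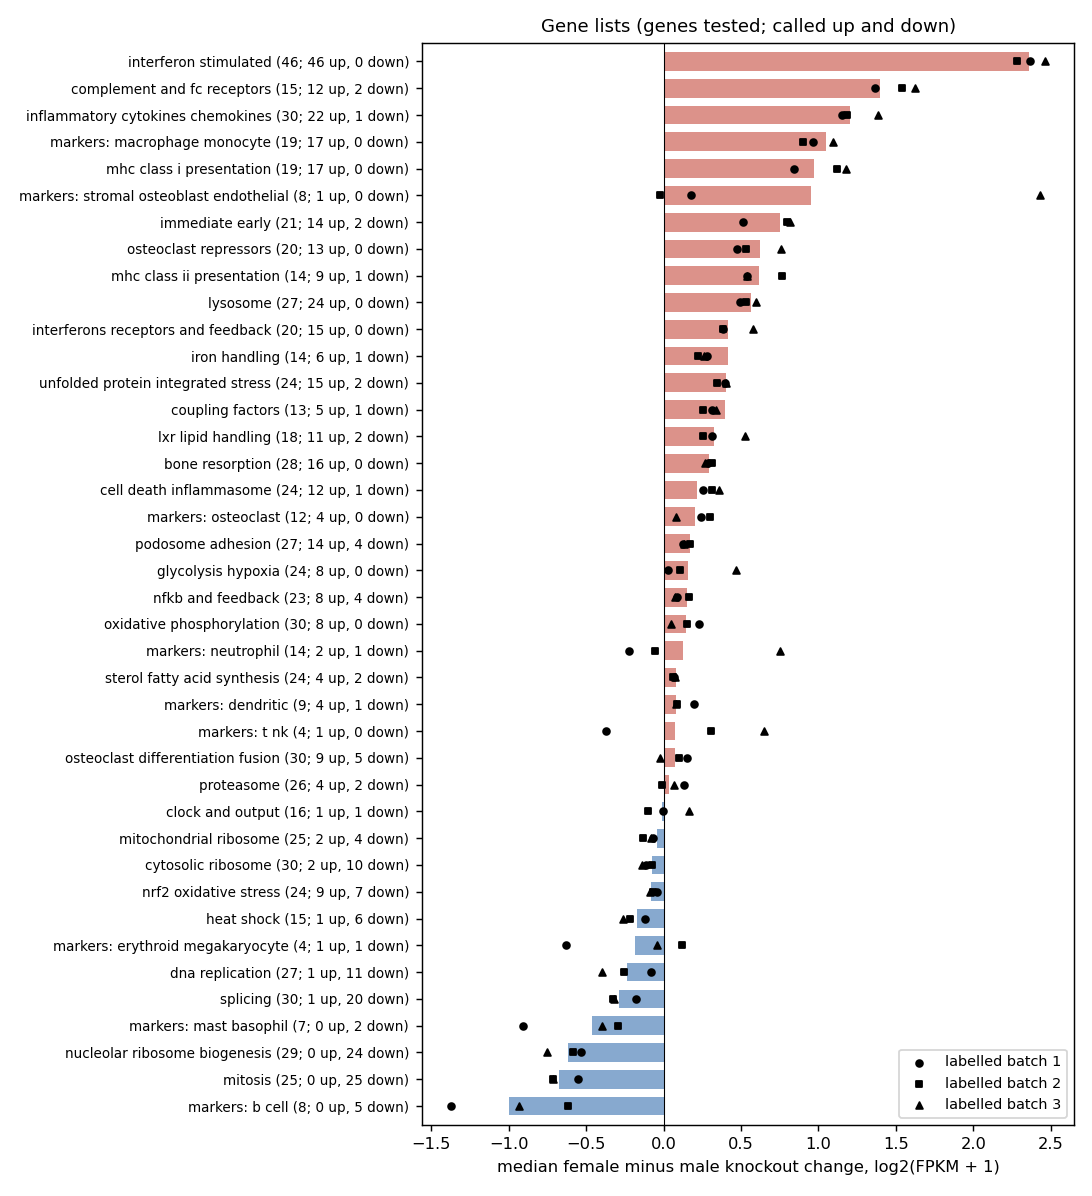
Median difference of changes (log2) of each gene list as a bar, with points for the 3 labelled batches. The interferon-stimulated list stands at 2.36 and the mitosis list at −0.68. The medians of the podosome, osteoclast differentiation, NF-kB, glycolysis, oxidative phosphorylation, sterol, proteasome and clock lists change sign under at least 1 scaling. So do those of the dendritic, neutrophil and T and NK cell markers.

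Stress and death pathways were mostly on the higher side. Of 24 genes of the unfolded protein and integrated stress responses 15 were higher and 2, Psat1 and Slc7a11, were lower (median 0.40). Hspa5, the main chaperone of the endoplasmic reticulum, was at 193, 204 and 199.9 FPKM in the female controls and 275, 280.0 and 297 in the female knockouts. In males Hspa5 was at 348, 360.2 and 330.1 FPKM in the male controls and 303, 347 and 329.9 in the male knockouts, and the difference was 0.59 ± 0.08 (SE; adjusted p = 0.000211). Calr, calreticulin, had 1.01 ± 0.10 (SE; adjusted p = 2.43e-05), and Xbp1, a transcription factor of that response, 0.50 ± 0.07 (SE; adjusted p = 0.000404). Of 24 cell death and inflammasome genes 12 were higher and 1, Bcl2l11, was lower (median 0.22). Mlkl, which executes necroptosis, was at 11.2, 10.9 and 10.9 FPKM in the female controls and 30.7, 29 and 34.4 in the female knockouts. Male levels of Mlkl were 49.5, 48.7 and 51.6 FPKM in the male controls and 50.7, 52.1 and 53.2 in the male knockouts, with a difference of 1.37 ± 0.08 (SE; adjusted p = 7.97e-07). Casp1 and Nlrp3, of the inflammasome, had 0.85 ± 0.09 (SE; adjusted p = 6.11e-05) and 0.77 ± 0.10 (SE; adjusted p = 0.000191). Cytosolic and mitochondrial heat shock genes went the other way, 1 higher and 6 lower of 15 (median −0.17). The most negative was Hsp90aa1 at −0.69 ± 0.09 (SE; adjusted p = 0.000195).

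Energy and lipid genes had medians close to 0. Of all tested genes 18.1% were higher and 16.6% lower. Higher genes were 35.1% of those with a mean of 20 to 100 FPKM and 48.0% over 100. Glycolysis genes were higher in 8 and lower in 0 of 24 (median 0.16, negative in 1 scaling), with Hk3, a hexokinase of myeloid cells, at 1.02 ± 0.08 (SE; adjusted p = 5.04e-06). Oxidative phosphorylation genes were higher in 8 and lower in 0 of 30 (median 0.14, negative in 2 scalings). Sterol and fatty acid synthesis genes were higher in 4 and lower in 2 of 24 (median 0.08, negative in 2 scalings), and proteasome genes in 4 and 2 of 26 (median 0.04, negative in 4 scalings).

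Among the pathway lists, mitosis and ribosome assembly in the nucleolus had the most negative medians. Of 25 mitosis genes 25 were lower, with a median difference of −0.68, a median change of −0.65 in females and 0.00 in males, and a median sex gap of 1.06 in controls and 0.39 in knockouts. Their summed level was 542 to 544 FPKM in the female controls and 318 to 347 in the female knockouts, and 236 to 255 in the male controls and 228 to 262 in the male knockouts. Mki67, the proliferation marker Ki-67, was at 42.3, 41.9 and 40.5 FPKM in the female controls and 22.6, 20.9 and 22.2 in the female knockouts. In males Mki67 was at 14.5, 15.4 and 14.3 FPKM in the male controls and 15, 16.9 and 15.6 in the male knockouts. The female controls were highest, the female knockouts lay above the males without overlap, and the difference was −0.99 ± 0.07 (SE; adjusted p = 2.88e-06). Cdk1, the kinase that drives mitosis, was at 26.6, 26.8 and 26.9 FPKM in the female controls and 14.3, 14.5 and 13.2 in the female knockouts. Male levels of Cdk1 were 11.6, 11.2 and 12.3 FPKM in the male controls and 10.5, 11.7 and 10.6 in the male knockouts, with a difference of −0.80 ± 0.07 (SE; adjusted p = 1.84e-05). Top2a and Ccnb1 had −0.80 ± 0.09 (SE; adjusted p = 6.45e-05) and −0.86 ± 0.10 (SE; adjusted p = 0.000127). DNA replication genes were lower in 11 and higher in 1 of 27 (median −0.24), with Ccne2, cyclin E2, at −0.67 ± 0.11 (SE; adjusted p = 0.000637) and Rrm2, which makes deoxynucleotides, at −0.46 ± 0.09 (SE; adjusted p = 0.00202).

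Nucleolar genes of ribosome assembly were lower in 24 and higher in 0 of 29 tested (median −0.62). Summed over all 30 listed, levels were 1200 to 1310 FPKM in the female controls and 781 to 807 in the female knockouts. In males the sum was 656 to 719 in the male controls and 631 to 711 in the male knockouts. Npm1, nucleophosmin, was at 312, 349 and 316 FPKM in the female controls and 179, 174 and 174 in the female knockouts. In males Npm1 was at 145, 154 and 159 FPKM in the male controls and 139, 166 and 148 in the male knockouts, and the difference was −0.87 ± 0.09 (SE; adjusted p = 5.01e-05). Tsr1, a ribosome maturation factor, was at 16.4, 16.2 and 16.3 FPKM in the female controls and 8.03, 8.12 and 8.17 in the female knockouts. Male levels of Tsr1 were 6.85, 7.25 and 6.28 FPKM in the male controls and 6.51, 7.28 and 6.58 in the male knockouts, and the difference was −0.92 ± 0.07 (SE; adjusted p = 6.74e-06). Utp20, which processes ribosomal RNA, had −1.01 ± 0.08 (SE; adjusted p = 7.9e-06), and Polr1b, a subunit of RNA polymerase I, −0.81 ± 0.09 (SE; adjusted p = 4.86e-05). Of the ribosomal proteins, 10 of 30 cytosolic ones were lower and 2 higher. Their median of −0.07 was −0.30 under quantile normalization and −0.27 with the nuclear protein-coding sum. Of 25 mitochondrial ones 4 were lower and 2 higher (median −0.04), against 16.6% lower and 18.1% higher of all tested genes. Many ribosomal protein genes, and Npm1, have processed copies, so their levels are uncertain. Splicing factors were lower in 20 and higher in 1 of 30 (median −0.28). Srsf3, a splicing factor, was at 51.4, 52.8 and 54.5 FPKM in the female controls and 35.5, 34.9 and 37.2 in the female knockouts. In males Srsf3 was at 35.5, 34.5 and 36.9 FPKM in the male controls and 33.5, 36.5 and 34.5 in the male knockouts, so the female controls alone stood apart, and the difference was −0.52 ± 0.06 (SE; adjusted p = 0.000136). Hnrnph1, an RNA-binding splicing regulator, had −0.59 ± 0.06 (SE; adjusted p = 5.16e-05).

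Among single genes with large negative differences, Mmp12, the macrophage elastase, was at 184, 190.2 and 152 FPKM in the female controls and 28.6, 33.4 and 30.4 in the female knockouts. Male levels of Mmp12 were 25.5, 34.3 and 59.8 FPKM in the male controls and 51.3, 28.4 and 29.9 in the male knockouts. The female controls alone stood apart, and the difference was −2.38 ± 0.39 (SE; adjusted p = 0.000894), with values of −3.63, −2.21 and −1.31 in batches 1, 2 and 3. Itgax, the integrin CD11c of dendritic cells and some macrophages, was at 37.2, 36.7 and 31.9 FPKM in the female controls and 10.3, 11.5 and 10.3 in the female knockouts. In males Itgax was at 7.58, 8.1 and 9.08 FPKM in the male controls and 10.9, 7.51 and 8.35 in the male knockouts, and the difference was −1.72 ± 0.16 (SE; adjusted p = 1.91e-05). Emp2, a membrane protein with 4 spans, had −1.54 ± 0.11 (SE; adjusted p = 3.75e-06). The chemokine gene Cxcl14 was at 12.9, 13.3 and 11.3 FPKM in the female controls and 2.87, 2.98 and 2.76 in the female knockouts and at 2.92, 3.36 and 5.45 FPKM in the male controls and 3.33, 2.75 and 2.28 in the male knockouts, with −1.45 ± 0.23 (SE; adjusted p = 0.000622). Kcnj2, an inward rectifier potassium channel, had −1.41 ± 0.14 (SE; adjusted p = 2.77e-05), and Mycl, a transcription factor of the Myc family, −1.23 ± 0.21 (SE; adjusted p = 0.00101). Slc16a1, a lactate transporter, had −1.09 ± 0.10 (SE; adjusted p = 1.16e-05).

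Genes of other blood cells were also among the lower ones. Of 8 tested B cell markers 5 were lower and 0 higher (median −1.0). The summed level of all 11 listed was 120 to 142 FPKM in the female controls and 56.1 to 79.3 in the female knockouts. In males the sum was 63.3 to 121 in the male controls and 49.3 to 119 in the male knockouts. Ebf1 and Vpreb1 were under 1 FPKM in all 12 libraries. The part of these cells in other differences was not tested. Cd79a, a signalling chain of the B cell receptor, was at 8.63, 8.22 and 11.9 FPKM in the female controls and 3.08, 3.01 and 1.68 in the female knockouts. Male levels of Cd79a were 2.29, 2.99 and 6.11 FPKM in the male controls and 4.96, 1.57 and 4.71 in the male knockouts, and the difference was −1.54 ± 0.49 (SE; adjusted p = 0.0325), a call lost in 7 settings (adjusted p of 0.00562 to 0.0959), including the omission of female control 3, of female knockout 3, of male control 1 or 2 or of male knockout 1 or 3. Of 7 mast cell and basophil markers the basophil proteases Mcpt8 and Prss34 were lower, and the list summed to 22.4 to 42.5 FPKM in the female controls, 12.4 to 17.7 in their knockouts, 16.3 to 36.9 in the male controls and 23.8 to 55.4 in their knockouts. Mcpt8 was at 4.83, 3.48 and 10.4 FPKM in the female controls and 2.16, 1.26 and 2.32 in the female knockouts and at 1.58, 1.6 and 4.49 FPKM in the male controls and 9.73, 2.85 and 2.76 in the male knockouts, the female controls lay above the female knockouts while the male libraries overlapped both, and its difference of −1.91 ± 0.65 (SE; adjusted p = 0.0411) was lost in 11 settings (adjusted p of 0.0204 to 0.117), including the omission of female control 1 or 3, of female knockout 1, 2 or 3, of male control 1 or 2 or of male knockout 1. Neutrophil markers were higher in 2 and lower in 1 of 14, against 18.1% and 16.6% of all tested genes. Dendritic cell markers were higher in 4 and lower in 1 of 9, and T and NK cell markers in 1 and 0 of 4. The erythroid and megakaryocyte list had 1 higher and 1 lower of 4. The stromal list had 1 higher of 8, Kdr at 2.16 ± 0.17 (SE; adjusted p = 7.11e-06).

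Sumo2 and Srp54b also stood among the largest negative values, but the libraries within groups disagreed. Sumo2 was at 67.5, 53.9 and 71.9 FPKM in the female controls and 5.63, 7.62 and 27.4 in the female knockouts and at 17.9, 5.82 and 18 FPKM in the male controls and 5.59, 39.9 and 57.5 in the male knockouts, with a difference of −3.36 ± 1.09 (SE; adjusted p = 0.0342). Srp54b was at 7.33, 5.34 and 2.39 FPKM in the female controls and 1.82, 3.18 and 2.32 in the female knockouts and at 1.09, 1.7 and 2.15 FPKM in the male controls and 1.74, 7.26 and 4.27 in the male knockouts, with −1.65 ± 0.56 (SE; adjusted p = 0.04). Each call was lost in 9 settings, with values from −4.33 to −2.75 for Sumo2 and from −2.58 to −0.87 for Srp54b. Sumo2 lost it on omission of female control 1, 2 or 3, of female knockout 1 or 2, of male control 2 or of male knockout 2 or 3. Srp54b lost it on omission of female control 1 or 2, of female knockout 1 or 3, of male control 1 or 2 or of male knockout 2 or 3. Both genes have near-identical copies in the genome, among which reads may be divided.

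In a smaller set the female knockouts, not the female controls, stood apart from the males. Igfbp4, which binds insulin-like growth factors, was at 6.16, 6.88 and 5.86 FPKM in the female controls and 11.5, 10 and 10.7 in the female knockouts. In males Igfbp4 was at 8.93, 8.36 and 8.85 FPKM in the male controls and 7.99, 7.56 and 6.83 in the male knockouts, and the difference was 0.89 ± 0.10 (SE; adjusted p = 6.07e-05). Ptges, which makes prostaglandin E, had 0.78 ± 0.16 (SE; adjusted p = 0.00313), and Trim54, a ring-finger protein of muscle, 0.77 ± 0.19 (SE; adjusted p = 0.00967). On the lower side Cd300lb, an activating receptor of myeloid cells, was at 59.6, 62.9 and 56 FPKM in the female controls and 34.8, 32.3 and 35.2 in the female knockouts. Male levels of Cd300lb were 48.5, 49.2 and 59.7 FPKM in the male controls and 60.9, 50.2 and 56 in the male knockouts, and the difference was −0.87 ± 0.12 (SE; adjusted p = 0.000354). Dhrs9, a retinol dehydrogenase, had −0.94 ± 0.17 (SE; adjusted p = 0.0016), and Cd226, an adhesion receptor of lymphoid and myeloid cells, −0.90 ± 0.26 (SE; adjusted p = 0.0217).

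In 47 higher and 38 lower genes the female controls and the female knockouts lay on opposite sides of the male range (0.745% of all tested genes have this arrangement). Besides Egr1 and Ier2, S100a4, a calcium-binding protein, was at 22, 17.4 and 21.3 FPKM in the female controls and 57.8, 47.1 and 52.3 in the female knockouts and at 45.4, 46.4 and 41.1 FPKM in the male controls and 45.3, 46.5 and 43.5 in the male knockouts, with 1.31 ± 0.13 (SE; adjusted p = 2.8e-05). Clk1, a kinase of splicing factors, was at 15.8, 17.3 and 16.2 FPKM in the female controls and 9.0, 8.46 and 7.27 in the female knockouts. In males Clk1 was at 10.1, 9.68 and 11.1 FPKM in the male controls and 11.8, 11.9 and 11.7 in the male knockouts, and the difference was −1.10 ± 0.10 (SE; adjusted p = 1.48e-05). Calcrl, a receptor for adrenomedullin and CGRP, had −0.85 ± 0.08 (SE; adjusted p = 2.9e-05).

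Of the 4052 called genes 877 had female and male changes of opposite sign in all 3 batches and 421 had changes of the same sign in all 3. A call on the difference of the 2 changes by itself favours opposite signs. The counts by batch in this paragraph were not taken over all tested genes. In the pooled values the signs were opposite for 55.2% of the higher and 66.3% of the lower genes, against 49.2% of all tested genes. The male contrast called 0 genes, so the sign of the male change is uncertain for most of them. Opposite changes over 0.2 in both sexes, in all 3 batches, were found for 108. Gstm2, a glutathione transferase, was one of these, at 0.968, 1.18 and 0.923 FPKM in the female controls and 1.94, 1.94 and 1.97 in the female knockouts and at 2.24, 2.4 and 2.71 FPKM in the male controls and 1.4, 1.5 and 1.26 in the male knockouts, with a female change of 0.55, a male change of −0.53 and a difference of 1.08 ± 0.11 (SE; adjusted p = 4.03e-05). The male change of Gstm2 did not pass its own test (adjusted p = 0.144). Among genes with changes of the same sign, Ifi27l2a, an interferon-induced mitochondrial protein, was at 57.3, 62 and 75 FPKM in the female controls and 304, 258 and 395 in the female knockouts and at 541, 527 and 848 FPKM in the male controls and 1072, 804 and 987 in the male knockouts. Its change was 2.27 in females. The male change of 0.60 did not pass the test, and the male groups overlapped. The difference of the changes was 1.66 ± 0.29 (SE; adjusted p = 0.00117). Vsig8, of the immunoglobulin superfamily, changed by −1.42 in females, had a male change of −0.44 that did not pass the test, and had a difference of −0.99 ± 0.15 (SE; adjusted p = 0.000476).

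The male change was the larger in size in 102 called genes. Trf, transferrin, the iron carrier of plasma, was at 11.7, 10.8 and 10.6 FPKM in the female controls and 10.7, 10.7 and 11.1 in the female knockouts. In males Trf was at 17.8, 18.1 and 18.7 FPKM in the male controls and 13.8, 11.3 and 12.5 in the male knockouts. The female groups overlapped, the male knockouts lay below the male controls, and the difference was 0.48 ± 0.09 (SE; adjusted p = 0.00182). The male change alone, −0.51, had an adjusted p of 0.0794. Ankrd2, a muscle ankyrin-repeat protein, was at 3.02, 3.15 and 3.38 FPKM in the female controls and 3.84, 4.67 and 4.6 in the female knockouts and at 5.64, 4.33 and 4.98 FPKM in the male controls and 1.95, 2.83 and 3.49 in the male knockouts, with 1.04 ± 0.19 (SE; adjusted p = 0.00177). Wdfy1, an endosomal adaptor, had 0.91 ± 0.21 (SE; adjusted p = 0.00687), and Fstl1, a secreted glycoprotein, 1.0 ± 0.32 (SE; adjusted p = 0.0335), which was lost in 8 settings, including the omission of female knockout 1, of male control 2 or 3 or of male knockout 2 or 3. Cx3cr1, the fractalkine receptor of monocytes, had lower means in the knockouts of both sexes. It was at 21.6, 24.9 and 22.1 FPKM in the female controls and 16.6, 14.6 and 16.5 in the female knockouts and at 30.5, 34.4 and 42.8 FPKM in the male controls and 21.9, 18 and 18.1 in the male knockouts, and its difference of 0.36 ± 0.16 (SE; adjusted p = 0.113) did not pass the test.

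Genes whose changes were closest between the sexes were described by the interval of the difference, since a p above the threshold does not show that changes were alike. They were taken from the genes called for the average of both changes as those with the smallest difference. Intervals centred on no difference therefore follow from the choice, and only their width is informative. Ccne1, cyclin E1, was at 9.09, 8.6 and 8.13 FPKM in the female controls and 6.41, 7.14 and 6.65 in the female knockouts. In males Ccne1 was at 5.41, 6.78 and 5.68 FPKM in the male controls and 4.34, 5.02 and 4.41 in the male knockouts. Its change was −0.31 in females and −0.31 in males, and the 95% interval of the difference ran from −0.24 to 0.24. For Cttnbp2nl the interval was −0.12 to 0.12, for Itsn2, a scaffold of endocytosis, −0.12 to 0.12, and for Smcr8, an autophagy regulator, −0.13 to 0.13. With the nuclear protein-coding sum, Cttnbp2nl and Itsn2 were called lower (adjusted p = 0.0285 and 0.0293), so their closeness depended on the scaling.

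Of 16 clock genes tested 1 was higher, 1 lower, and the median of −0.01 was positive in 2 scalings. Timeless, related to a fly clock gene and active at replication forks, was at 6.38, 6.53 and 7.21 FPKM in the female controls and 8.85, 9.14 and 10.3 in the female knockouts. Male levels of Timeless were 11.6, 12.4 and 9.86 FPKM in the male controls and 10, 11.5 and 11.4 in the male knockouts, and the difference was 0.47 ± 0.12 (SE; adjusted p = 0.0119), a call lost with the nuclear protein-coding sum. Bhlhe40, a repressor of clock targets, was at 58.4, 56.5 and 56.6 FPKM in the female controls and 46, 48.1 and 44.8 in the female knockouts. In males Bhlhe40 was at 39.5, 41.1 and 36.6 FPKM in the male controls and 40.2, 39.4 and 35.6 in the male knockouts, with −0.27 ± 0.08 (SE; adjusted p = 0.0194). Per1, the close relative of Per2, was at 2.57, 2.91 and 3.1 FPKM in the female controls and 3.35, 3.56 and 3.92 in the female knockouts. In males Per1 was at 4.38, 3.82 and 4.98 FPKM in the male controls and 5.58, 4.37 and 4.88 in the male knockouts, and its difference of 0.12 ± 0.14 (SE; adjusted p = 0.54) did not pass the test. For Clock, a core activator, the interval was −0.39 to −0.04, and it was called lower in 4 settings, with the assigned reads, the nuclear protein-coding sum, voom and without male control 3 (adjusted p of 0.00319 to 0.134). The intervals were −0.29 to 0.26 for its partner Arntl, −0.20 to 0.28 and −0.31 to 0.29 for the repressors Cry1 and Cry2, −0.33 to 0.32 for Nr1d1 and −0.17 to 0.40 for the output factor Dbp. Per3, like Per2 under the FPKM rule, had an adjusted p of 0.655 when no filter was applied.

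**Figure D5:**
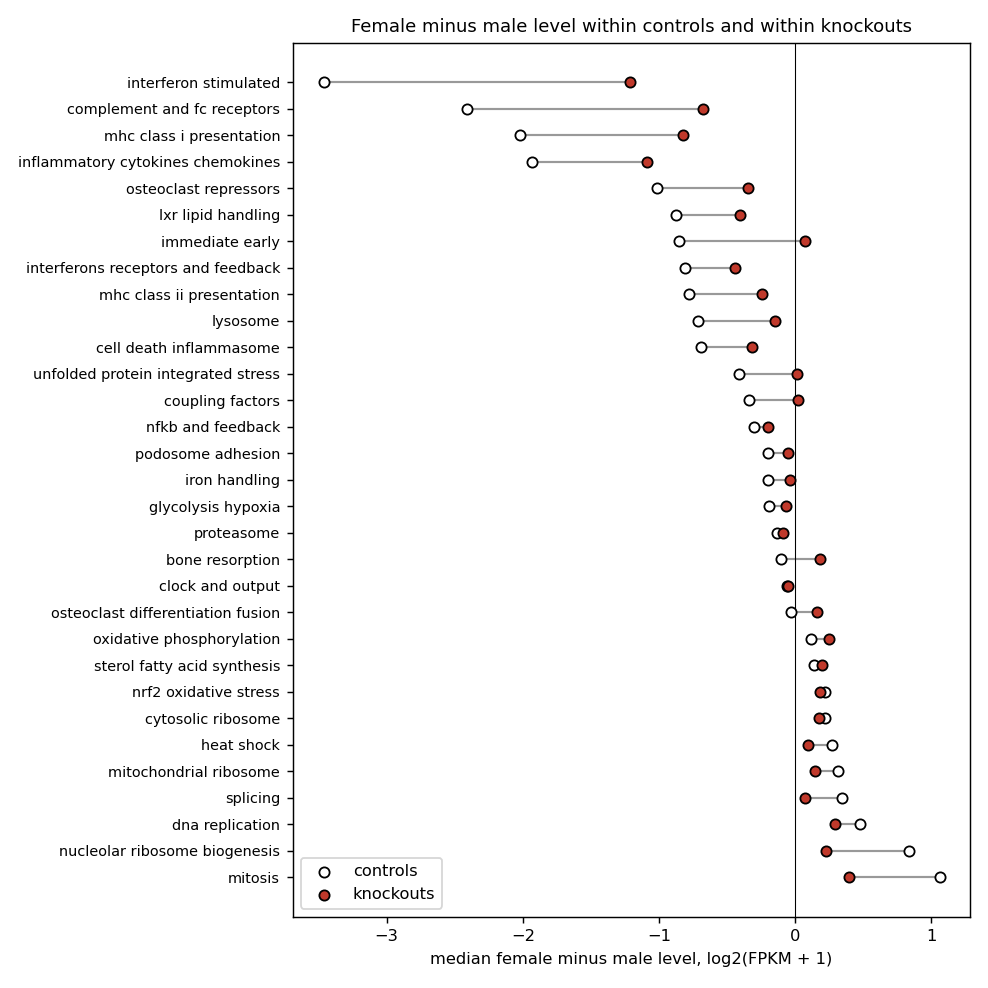
Median female minus male level (log2 of FPKM + 1) of each gene list in controls (open) and in knockouts (filled). The interferon-stimulated list went from −3.46 in controls to −1.21 in knockouts and the mitosis list from 1.06 to 0.39.

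The share of genes called rose with the level. It was 14.9% of genes with a mean under 2 FPKM, 38.6% from 5 to 20 and 57.0% over 100. Over 100 FPKM 231 genes were higher and 43 lower, while from 2 to 5 FPKM 242 were higher and 485 lower. By chromosome the share ran from 25.6% on 12 to 40.1% on 19. It was 37.6% of protein-coding genes, 17.4% of long non-coding RNAs and 19.3% of processed pseudogenes. Most tested genes, 9814 of 11673 (84.1%), had at least 1 FPKM in all 12 libraries, and so did 1913 of the higher (90.6%) and 1789 of the lower genes (92.2%). A further 28 lower genes passed the rule through the female controls alone and had to differ there.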

How the data were processed

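RNA sequencing of 12 mouse osteoclast libraries was read from 1 table. The authors deposited it as FPKM, with each gene's fragments divided by its length and by a library total. Per the submitters' processing notes, reads were handled with HISAT2 2.0.5 (alignment) and featureCounts 1.5.0-p3 (counting) on mm10. The sources used here name no annotation, strand setting or denominator, so reads of overlapping or antisense genes are not separable and near-identical copies are uncertain. File positions did not match mm10, so chromosomes are given without coordinates. FPKM times the gene length deposited by the authors (another column) was a whole number of reads, within 0.01, in 100.0% of non-zero values, which gave depths of 13888150 to 41145397 reads.

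Genes at 1 FPKM or more in 3 or more libraries were fitted with limma 3.58.1 in R 4.3.3 on log2(FPKM + 1), with 4 group means, no block and a trend in the prior variance. The difference of the knockout changes was tested two-sided with Benjamini-Hochberg adjustment over all 12102 genes and a threshold of 0.05. Log2 changes understate those of low genes. Intervals are 95%. Every adjusted p is from this model unless another tool is named.

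The comparison, its gene lists and the rule by which genes were named were all chosen with earlier results of these data known. The rule named the 12 largest called differences in each direction with 1 sign in all batches, up to 4 members of each list by p, up to 6 called genes with opposite changes, with changes of 1 sign and with a larger male change, 6 genes with the smallest difference, up to 3 per level pattern and direction, and a fixed set of clock and osteoclast genes with Irf7, Egr1, Trf and Cx3cr1. A few genes within the rule are not reported here, and the following gene in rank took their place. Sums of a list are sums of FPKM over all its genes in the table, including those not tested. Promoters of 8358 tested genes were matched by gene to RefSeq windows of 300 bases (GRCm38.p6) and searched on both strands.

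By label, replicate numbers mark the batch, which pairs libraries across groups. Deviations from the group means correlated at 0.021 on average in 18 same-numbered pairs (−0.118 to 0.092) and at −0.011 in 36 others (−0.16 to 0.184). Replicates correlated at 0.986 to 0.992, and their counts differed with a chi-square per degree of freedom of 4.59 to 13.7, beyond the sampling noise of reads. Each library was counted as a sample, as labelled. The spread of counts does not show whether the libraries came from separate mice. Alternatives were other pseudocounts, filters and scalings, voom, the batch as a block, thinning of the deepest library to 17145680 reads and leaving out each library.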

Additional observations from a re-analysis of the deposited data

Results flagged for a closer look

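In 2112 genes the female change was more positive than the male change and in 1940 more negative, each by limma's test of the difference itself. These counts are flagged because 2 groups differed under the same contrast.

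6 genes with opposite changes in females and males in all 3 batches were flagged for the same reason, each with its difference tested. Cxcl13, a chemokine for B cells, had a difference of 2.64 (adjusted p = 5.18e-05), with 0, 0.093 and 0.176 FPKM in the female controls, 3.24, 1.91 and 4.27 in the female knockouts, 4.11, 2.78 and 2.87 in the male controls and 1.38, 1.2 and 1.95 in the male knockouts. Ccl8, a monocyte chemokine, had 1.80 (adjusted p = 0.00051) and was at 0, 0 and 0.132 FPKM in the female controls. With controls at or near 0 the size depends on the pseudocount, and over the settings it ran from 1.01 to 6.23 for Cxcl13 and from 0.76 to 4.62 for Ccl8. Ccn1, a matrix signalling protein, had 1.58 (adjusted p = 0.00113). Ppih, a cyclophilin of the spliceosome, had −1.28 (adjusted p = 0.0113). Hba-a1, an alpha globin, had −1.21 (adjusted p = 0.041), a call lost in 10 settings, including the omission of female control 1 or 3, of female knockout 1, 2 or 3, of male control 1 or 2 or of male knockout 1 or 3, and Srp54b had −1.65 (adjusted p = 0.04). The male change passed its own test in none of the 6, with adjusted p-values of 0.653, 0.653, 0.531, 0.692, 0.719 and 0.719. In Hba-a1 and Srp54b the female change did not pass either (adjusted p = 0.147 and 0.144).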

How the results depend on the processing

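The count of genes called for the difference stayed within 1.5 times the 4052 in all 24 settings, from 3404 without a filter to 5253 with the nuclear protein-coding sum. With the batch as a replicate block it was 4038 (2127 higher, 1911 lower), and the block changed no other count by over 1.5 times. Leaving out each library in turn gave 3518 to 3916 calls, 1869 to 2056 higher and 1638 to 1860 lower. The split moved most with scaling, to 42.2% higher under quantile normalization besides the shares given above. Relative to the median of all genes under the same scaling, the osteoclast differentiation and proteasome lists turned negative with quantile normalization (−0.03 and −0.07), and the clock list with median-ratio rescaling (−0.0016). Of 186 called named genes 151 held the call in every setting with a value, and 11 of 32 uncalled ones gained it. The male contrast, at 0 calls, gave 4 with a pseudocount of 5, and 2 each with FPKM of at least 5, the assigned reads, the nuclear protein-coding sum and voom. Leaving out single libraries gave 0 to 1 calls there. Lower genes with the female knockouts outside the male range went from 737 to 1134 with the nuclear protein-coding sum, and the cause was not tested.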
